A study of Mus musculus with 12 samples.

Results

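The untreated control mice of the study give its reference state: bone marrow cells of animals labelled control by genotype, with no short chain fatty acids (SCFA), the products of fibre fermentation by gut microbes, in their drinking water. Their 3 libraries, of 12 in the series, were chosen by those labels alone and are named library 1, 2 and 3 after the replicate numbers. The marrow was taken at 8 weeks of age and kept for about 24 hours in alpha-MEM medium, after which the cells that had not attached were collected and their poly(A) RNA was sequenced. The labels name these cells progenitors, give no alleles for the control mice beyond the word control, and do not say whether each library came from its own mouse, so the spread below is that between libraries, which may be partly technical. The other groups are control mice given SCFA, and mice of the R26STAT3Cstopfl/fl CD4Cre genotype with and without SCFA. They are used here only to set the spread between libraries beside theirs. Nothing was compared between conditions, and no test was made.

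Bone marrow makes blood cells from a small pool of stem and progenitor cells, which carry receptors such as Kit and Flt3. Most cells of the tissue are later forms: granulocyte precursors and neutrophils filled with granule proteins, erythroblasts filled with globin, monocytes, and B cells at each step of antibody gene assembly. Cells that attach to plastic, such as macrophages and stromal cells, tend to be left behind when the floating cells are poured off, and monocyte precursors among the floating cells can become bone-resorbing osteoclasts when given M-CSF and RANKL.

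Differences between the 3 libraries moved with the base composition of genes, and 2 sequences of unlike composition are shown first. They come from the genes that differed most, in opposite directions, between libraries 1 and 2. The sequences are the first 120 bases of the coding part of 1 transcript of each gene, from GENCODE M21 on mm10, written 5′ to 3′ on the gene's strand with every G and C in capitals. Both are among the 30 genes with the highest mean count per library. S100a8, on the forward strand at chr3:90668978-90670035, encodes a chain of calprotectin, the calcium-binding protein that fills neutrophil cytoplasm. Psap, on the forward strand at chr10:60277627-60302597, encodes prosaposin, the precursor of proteins that help lysosomes break down lipids. The pair was chosen for these values: of the nuclear protein-coding genes among those 30, S100a8 had the highest ratio of library 1 to library 2 and Psap the lowest.
S100a8: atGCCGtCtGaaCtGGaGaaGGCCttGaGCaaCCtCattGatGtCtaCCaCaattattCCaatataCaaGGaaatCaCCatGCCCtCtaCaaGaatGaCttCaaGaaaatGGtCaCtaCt
Psap: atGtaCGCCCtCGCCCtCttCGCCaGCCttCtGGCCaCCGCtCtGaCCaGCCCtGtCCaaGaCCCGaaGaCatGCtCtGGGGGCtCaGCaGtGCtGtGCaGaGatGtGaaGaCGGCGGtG
G and C make up 50 of the 120 bases shown for S100a8 and 76 of those for Psap, or 41.7% and 63.3%. Over the longest transcript the GC content was 44.9% for S100a8 and 54.7% for Psap. S100a8 stood at 31509, 13639 and 17895 CPM (a gene's counts per 1000000 of its library) in libraries 1, 2 and 3, highest in library 1. Psap stood at 1578, 2882 and 2281 CPM, lowest in library 1. The log2 ratio of library 1 to library 2 was 1.21 for S100a8, against a median of 0.35 for genes at 40% to 45% GC. For Psap it was -0.87, against a median of -0.45 for genes at 50% to 55% GC. Both genes thus differed by more than the median gene of like GC content, and the cause was not tested.

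The libraries held 17160430, 16954355 and 18926194 counts in the order 1 to 3. Of 55291 gene symbols listed, 29199 had no count in any of the 3, and 11981 reached 1 CPM in all 3, the level taken here as detected. A gene with 0 counts in the 3 libraries together may stand at up to 0.0566 CPM, the level of 3 counts, a limit that covers counting error only. Protein-coding genes held 96.8% to 97.5% of counts. The 86 ribosomal protein genes whose symbols start with Rpl or Rps and a number held 0.754% to 0.795%. How reads that fit more than 1 gene were treated is not given in the sources used here, and its part in this share was not tested. Xist, the RNA that coats the inactive X chromosome, was at 0 counts in the 3 libraries, and Ddx3y, a gene of the Y chromosome, at 145, 108 and 128 CPM.

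Neutrophil genes led the ranking. By mean CPM the order began with S100a8, then Lyz2 (lysozyme, a bacterial wall-cutting enzyme of myeloid cells), Hbb-bs (an adult beta-globin), S100a9 (the other calprotectin chain) and Ngp (neutrophilic granule protein). Lyz2 was steady at 10008, 11146 and 10452 CPM, and Hbb-bs fell in the range of 8009 to 10266 CPM. Of the 30 genes with the highest mean CPM, 10 belong to the neutrophil lists. As bulk RNA sums over cells, more cells of a type and more RNA per cell cannot be told apart in any level given here.

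CPM favours long genes, so levels of different genes were compared as TPM (transcripts per 1000000), which divides counts by the gene's exon length. S100a8 led again at 114700, 53942 and 70428 TPM in libraries 1, 2 and 3. S100a9 followed at 38771, 34462 and 38069 TPM. The ranges of these 2 did not overlap, although their proteins work as a pair. Hbb-bs came next at 33771, 31984 and 28482 TPM, then Lyz2 at 19213, 23247 and 21692 TPM. Hba-a1, an adult alpha-globin, was the fifth with a mean of 15699 ± 2959 TPM (SD, n = 3), and Ngp the sixth with 14537 ± 2318 TPM. Their ranges overlapped, as did those of most neighbours further down.

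Of the 29 neighbouring pairs among the 30 genes with the highest mean TPM, 6 had ranges that did not touch, and the first 4 pairs were among these. Only 8 pairs stood in the same order in all 3 libraries. The rest of the 30 hold more myeloid genes: Retnlg, a resistin-like protein secreted by neutrophils, at 12313 ± 1463 TPM; Chil3, a chitinase-like secretory protein, at 6014 ± 1251 TPM; Mmp8, the neutrophil collagenase, at 3988 ± 415 TPM; and Prg2, the eosinophil major basic protein, at 4186 ± 797 TPM. Tyrobp and Fcer1g, signalling adaptors of myeloid receptors, had means of 4815 and 2596 TPM. Tmsb4x (thymosin beta 4, which binds actin monomers) had 9109 TPM and Ftl1 (ferritin light chain, an iron store) 6620 TPM. One entry, Gm23935, is an annotated miRNA gene model of only 57 bases on chromosome 16 and reached 11939 ± 260 TPM. Its TPM rests on that short length, and a poly(A) library is not designed to measure miRNAs.

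**Figure D1:**
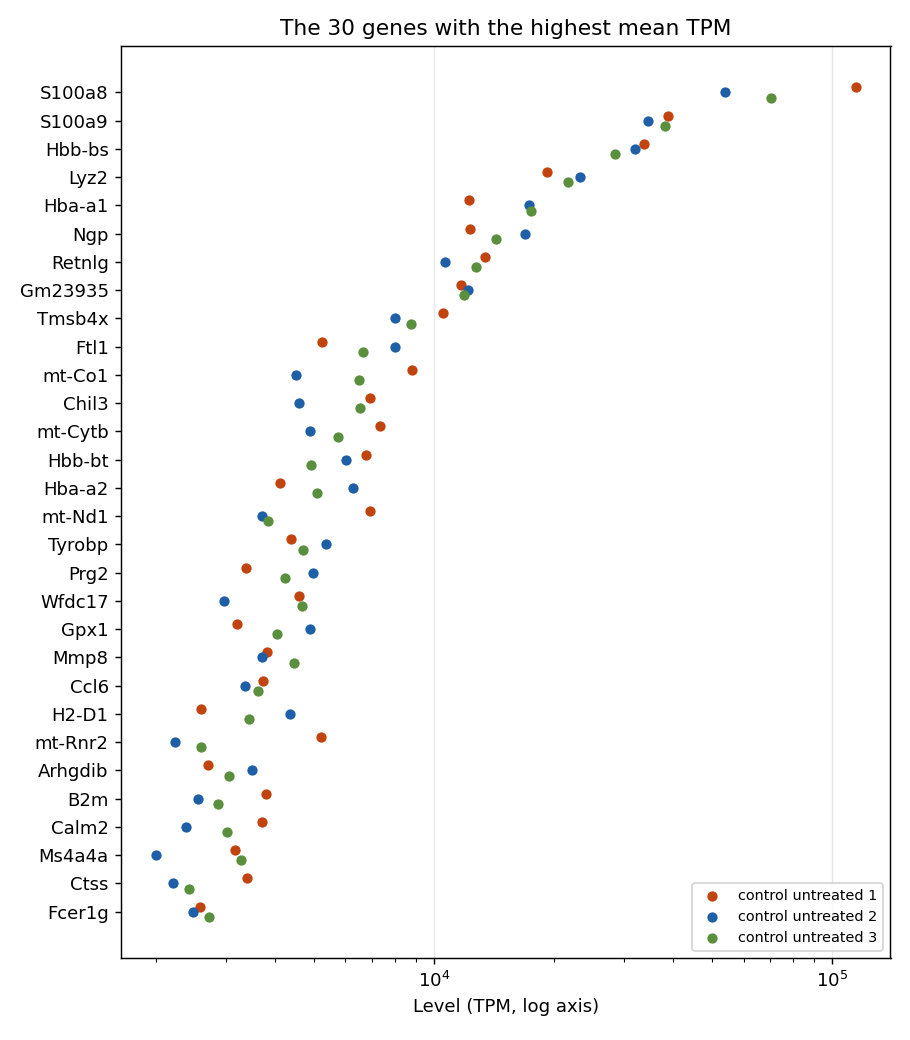
Level in TPM on a log axis of the 30 genes with the highest mean TPM, 1 point per library, in order of the mean. S100a8 lies apart from S100a9 in every library, with library 1 at 114700 and library 2 at 53942 TPM, while most genes lower down overlap with their neighbours.

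A modest number of genes held much of the RNA, more so per length. The 50 genes with the highest mean CPM held 17.9%, 14.8% and 15.5% of counts, a mean of 16.0% ± 1.63 (SD, n = 3). In TPM the share of the leading 50 was 36.6% ± 3.32. The 1000 most abundant genes of each library held 53.5% to 56.8% of its counts. S100a8 alone made up 3.15% of counts in library 1, 1.36% in library 2 and 1.79% in library 3. Genes at a mean of 10 CPM or more numbered 8852, those at 100 CPM or more 2225, and those at 1000 CPM or more 96. A detected gene had a median of 18.4 TPM, and the upper 1% began at 786 TPM.

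Of the 6 markers named for these cells, 5 stood in the upper part of that scale and 1, Kit, near its middle. S100a8 and S100a9 were the first and second of all genes by TPM. Ighm, the constant part of the IgM heavy chain made by B cells, stood at 1840, 2557 and 2245 TPM, rank 35. Alas2, the enzyme that starts haem synthesis in erythroid cells, stood at 1554, 2727 and 2253 TPM, rank 37, and its range overlapped that of Ighm. Csf1r, the M-CSF receptor of monocytes and their precursors, stood at 156, 309 and 252 TPM, above 95.4% of detected genes. Kit, the stem cell factor receptor that defines early progenitors and mast cells, stood at 14.5, 19.5 and 19.4 TPM. Its mean of 17.8 TPM was close to the median gene, above 49.0% of detected genes. The ranges of Csf1r and Kit did not overlap, nor did that of Csf1r with those of Ighm or Alas2. In these libraries the marker of early progenitors was therefore present but at an ordinary level, while markers of mature and maturing cells were among the highest.

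**Figure D2:**
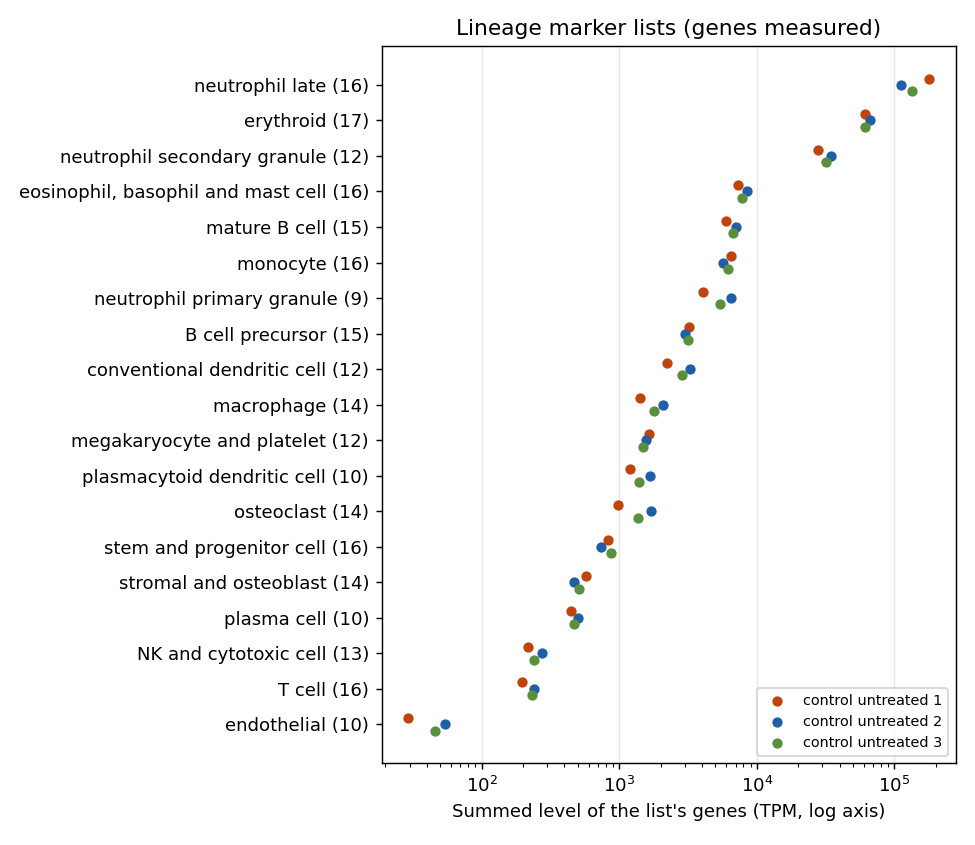
Summed level in TPM on a log axis of 19 lists of lineage marker genes, 1 point per library, with the number of genes measured in brackets. The late neutrophil and erythroid lists are the highest in every library and the endothelial list the lowest, and the order of neighbouring lists in the middle differs between libraries.

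Genes of the neutrophil series were followed by stage, since granule proteins are made in waves. All 9 measured primary granule genes were detected, the enzymes made first, by promyelocytes (Azu2 was not matched to a row). Elane, neutrophil elastase, led with a mean of 1952 TPM, before Mpo, myeloperoxidase, at 1689 TPM and Prtn3, proteinase 3, at 510 TPM. Mpo stood at 1554, 2752 and 2149 CPM and Elane at 595, 839 and 716 CPM, both lowest in library 1 and highest in library 2. Of the 9 genes, 8 were highest in library 2, and the list sum was 2988, 4606 and 3800 CPM. Of all 8852 genes at a mean of 10 CPM or more, 49.6% were highest in library 2.

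The secondary granule list, made at the myelocyte stage, had 11 of 12 genes detected. Ngp, Chil3 and Camp, the cathelicidin antimicrobial peptide at 2578 TPM, led it. Ltf, lactoferrin, which binds iron, stood at 2088, 3493 and 2693 CPM. Chil3 ran the other way, at 4473, 2728 and 3902 CPM. Their GC contents were 51.0% for Ltf and 44.96% for Chil3. The list sum was nearer to even, at 18186, 20545 and 19313 CPM. The gene left undetected was Orm1, an acute phase protein, at 2.45, 0.885 and 1.48 CPM.

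The late list, of bands and segmented neutrophils, had all 16 genes detected and the highest sum of all lists, 55445, 35052 and 41158 CPM. S100a8 made up 56.0% of its summed TPM. Csf3r, the G-CSF receptor, stood at 846, 1522 and 1197 CPM, lowest in library 1, whereas Retnlg was highest there at 3165, 2306 and 2775 CPM. Cxcr2, the chemokine receptor that guides neutrophils out of the marrow, was nearly level at 549, 540 and 590 CPM. Members of the list therefore did not follow 1 order: 8 were highest in library 1, 4 in library 2 and 4 in library 3. Of all 8852 genes at a mean of 10 CPM or more, 29.1%, 49.6% and 21.3% were highest in libraries 1, 2 and 3. Together the 37 genes of the 3 lists held 7.66%, 6.02% and 6.43% of counts and 21.2%, 15.3% and 17.2% of all TPM.

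The NADPH oxidase, with which neutrophils and monocytes make superoxide, was present with all 6 listed subunits, summing to 4386, 4917 and 4646 CPM. Its membrane chains are Cyba, with a mean of 1923 TPM, and Cybb, with 757 TPM. Cybb was highest in library 1 at 1900 CPM, against 1359 and 1703 CPM. The other 5 subunits, among them the GTPase Rac2 at 1010 TPM, were highest in library 2, as were 49.6% of all 8852 genes at 10 CPM or more.

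Erythroid genes formed the next most abundant lineage. The 4 adult globin genes held 1.72%, 1.71% and 1.57% of counts. Hba-a1 stood at 3948, 5122 and 5203 CPM and Hbb-bt, the minor beta-globin, at 1884, 1539 and 1262 CPM, so that the alpha gene was lowest and the beta gene highest in library 1. Hbb-bs and Hbb-bt, with GC contents of 51.3% and 50.8%, were both highest in library 1. Of the genes at 50% to 55% GC, 12.98% were higher in library 1 than in library 2. Both pairs of globins are near-identical copies, and how reads that fit more than 1 copy were treated is not given in the sources used here, so the level of each copy is uncertain. Of 17 measured erythroid genes, 16 were detected. The exception was Car1, a carbonic anhydrase of late erythroid cells, with 1.69, 0.885 and 0 CPM, while Car2, the related enzyme found in several cell types, stood at 583, 691 and 558 CPM. The transcription factors that set the erythroid program were much lower than its products: Gata1 had a mean of 32.3 TPM and Klf1 24.0 TPM.

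B cell genes were the main lymphoid signal. All 15 precursor genes and all 15 mature genes were detected, with sums of 2898, 2259 and 2530 CPM and of 5687, 5484 and 5636 CPM. Vpreb3, a member of the precursor list, had a mean of 350 TPM. The pre-B receptor chains Igll1 and Vpreb1 had means of 48.6 and 41.7 TPM. The recombinase genes Rag1 and Rag2, which cut antibody genes, had 17.8 and 27.9 TPM. Dntt, the enzyme that adds bases at the cut ends, had 48.2 TPM.

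Cd24a, a surface protein that precursors share with erythroid cells and neutrophils, led that list at 1262 TPM, and stood at 1598, 873 and 1222 CPM. Cd79a and Cd79b, the signalling chains of the receptor, were at 588 and 571 TPM, with overlapping ranges over the libraries. Ighm led the mature list and was lowest in library 1, at 1374, 1757 and 1550 CPM. Ms4a1, which encodes CD20, was highest there, at 493, 316 and 364 CPM. Ms4a1 has a GC content of 40.6% and Ighm of 51.8%. Marker genes of the same cells thus differed in opposite ways between the same libraries.

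Antibody gene segments gave a second view of the B cells. Counts fell on 115, 107 and 111 heavy chain variable segments in libraries 1 to 3, summing to 176, 195 and 199 CPM. For kappa light chains these were 106, 106 and 113 segments and 299, 244 and 303 CPM. The 3 lambda segments with counts summed to 116, 132 and 135 CPM. Igkc, the kappa constant region, had 2105 TPM, close to Ighm at 2214 TPM, and their ranges overlapped. Plasma cell genes were low apart from 1: 8 of 10 listed genes were detected, but Xbp1, a secretory stress factor used by many cells, held 78.6% of the list's TPM. Jchain, the joining chain of secreted IgM, was at 22.2, 6.78 and 11.8 CPM and Igha at 14.9, 13.6 and 8.88 CPM. Tnfrsf17, the BCMA receptor of plasma cells, had 0 counts in each library.

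The progenitor list was detected for 13 of 16 genes and summed to 711, 677 and 729 CPM. Its highest members are not restricted to progenitors: Cd48, a surface protein of most leukocytes, had 431 TPM, and Ly6a, the Sca-1 antigen, had 213 TPM. Of those closer to the stem and progenitor stages, Cd34 stood at 50.9, 51.1 and 53.8 CPM and Flt3, a receptor of lymphoid and dendritic precursors, at 29.6, 39.1 and 34.9 CPM. Kit stood at 51.0, 63.3 and 63.1 CPM. Mean levels of 19.0 TPM for Cd34 and 15.0 TPM for Flt3 put them, like Kit, above 51.0% and 44.2% of detected genes. Meis1 and Hoxa9, factors of early progenitors, had 3.07 and 2.39 TPM.

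Genes used to find long-term stem cells were low. Slamf1, which encodes CD150, was at 8.45, 8.43 and 5.65 CPM and Hlf, a stem cell transcription factor, at 5.30, 3.01 and 2.96 CPM. Procr was at 0.175, 0.236 and 0.423 CPM, and Mecom at 0.0583, 0 and 0.370 CPM. Division genes were all detected, 20 of 20, with Rrm2, a subunit of the enzyme that makes DNA building blocks, at 281 TPM, Top2a, a DNA untangling enzyme, at 154 TPM, and Pcna, the sliding clamp of replication, at 148 TPM. Their sum differed little, at 2560, 2666 and 2772 CPM. Against the label progenitors, Kit, Cd34 and Flt3 were detected, in RNA in which neutrophil, erythroid and B cell genes stood far higher.

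Monocyte genes had 15 of 16 members detected and sums of 7519, 6890 and 7591 CPM. Ctss (cathepsin S, a lysosomal protease) had 2679 TPM, Ccr2 (the receptor that brings classical monocytes out of the marrow) 739 TPM and F13a1 (a clotting factor subunit) 599 TPM. Ly6c2, an antigen of classical monocytes, was nearly equal in the 3 libraries at 418, 419 and 395 CPM. Csf1r stood at 356, 649 and 533 CPM and Ccr2 at 2100, 1502 and 2036 CPM. The first has a GC content of 54.5% and was lowest in library 1, and the second has 39.4% and was highest there. This and the other pairs of genes given with their GC contents are examples and no test of a trend. Genes of the non-classical form were low: Cx3cr1, the fractalkine receptor, was at 7.52, 12.1 and 14.2 CPM, Nr4a1, the factor that form depends on, at 11.1, 11.7 and 9.72 CPM, and Ace at 0.0583, 1.24 and 0 CPM.

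Osteoclast genes bear on the title of the series. Of the 14 listed, 8 were detected in all 3 libraries. Mmp9, a gelatinase that neutrophils also make, held 77.9% of the list's summed TPM and also stands in the late neutrophil list. Tcirg1, a subunit of the proton pump with which osteoclasts acidify bone, had a mean of 85.4 TPM and is also used by lysosomes of other cells. Itgb3, the integrin chain that anchors osteoclasts, had 61.1 TPM and is shared with platelets. Nfatc1, a factor that RANK signalling switches on, had 54.7 TPM, and bulk RNA does not tell which cells held it. Acp5, the enzyme known as TRAP, stood at 21.1, 44.4 and 34.0 CPM. Tnfrsf11a, the RANK receptor, stood at 10.5, 16.4 and 15.5 CPM, and at 6.34 TPM it was above 23.7% of detected genes.

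Genes of fusion and resorption were uneven. Calcr, the calcitonin receptor, Ocstamp, needed for fusion, and Oscar, a costimulatory receptor, had 0 counts in each library. Dcstamp, the other fusion gene, had counts only in library 3, at 0.370 CPM, and Ctsk, the bone collagen protease, was low at 0.874, 1.65 and 1.80 CPM. Atp6v0d2, a proton pump subunit that takes part in fusion, was low as well at 1.75, 0.885 and 0.687 CPM. Clcn7, the chloride carrier that works beside the pump and is also found in lysosomes of other cells, stood at 35.4, 84.4 and 64.3 CPM, a mean of 31.3 TPM against 2.57 TPM for Ctsk. RANKL itself, Tnfsf11, was at 0.175, 0.885 and 0 CPM. These libraries therefore held RNA of the receptors for M-CSF and RANKL, with 0 counts for 3 of the 14 listed genes.

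**Figure D3:**
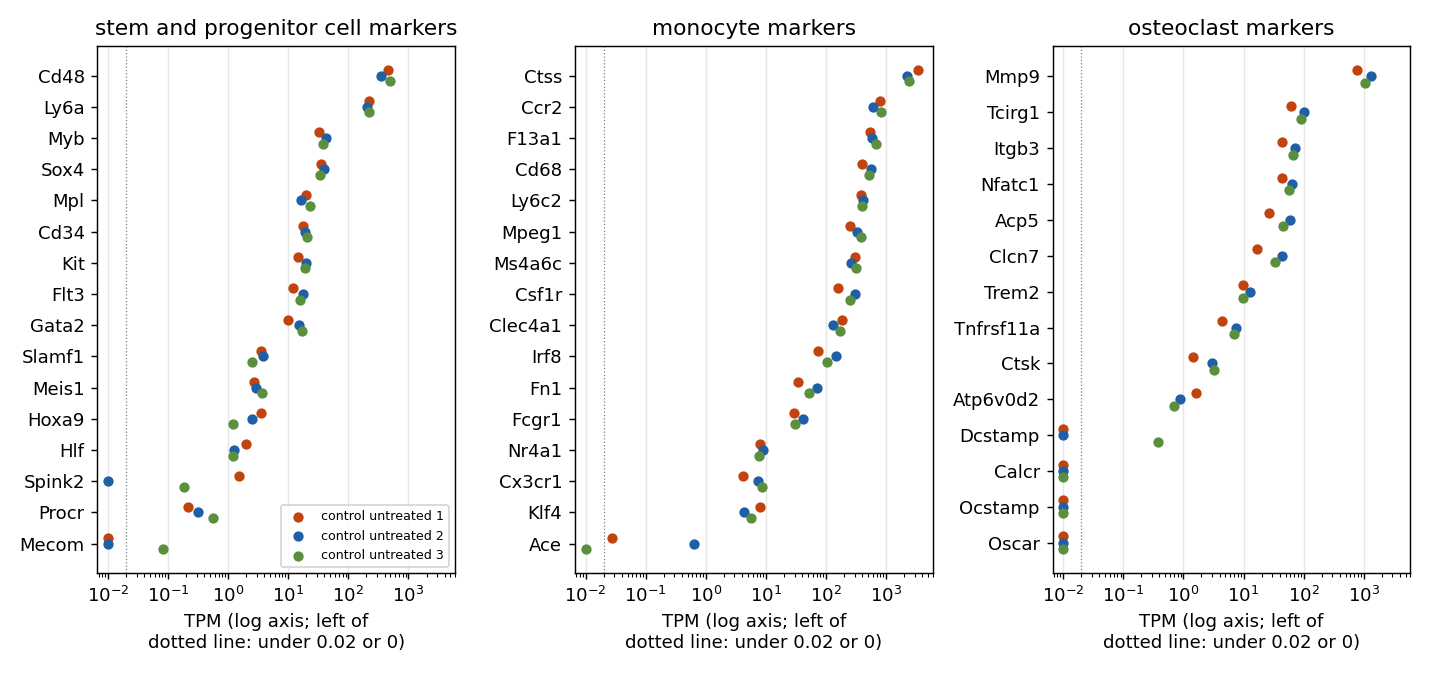
Level in TPM on a log axis of each gene of the progenitor, monocyte and osteoclast lists, 1 point per library. Points left of the dotted line are below 0.02 TPM or at 0, which holds in all 3 libraries for Calcr, Ocstamp and Oscar, while Csf1r lies between 156 and 309 TPM.

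The smaller lineages were present to unequal extents. Eosinophil, basophil and mast cell genes summed to 2982, 3474 and 3105 CPM, with 14 of 16 detected. Prss34 and Mcpt8, proteases of basophils, had means of 936 and 379 TPM, and Ear1, an eosinophil ribonuclease, 825 TPM. Ear1 and Ear2 are close copies of each other, so their separate levels are uncertain. Cpa3, a carboxypeptidase of mast cells and basophils, stood at 102, 42.1 and 61.9 CPM. Mcpt4, of connective tissue mast cells, had 0 counts.

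Dendritic cell genes were split by type. All 10 plasmacytoid genes were detected, with Siglech, a surface lectin of that type, at 132, 88.9 and 120 CPM and a list sum of 804, 837 and 796 CPM. Ly6d, which B cell precursors also express, held 73.9% of the list's summed TPM. In the conventional list, Cd74 (the invariant chain of MHC class II), with a mean of 1850 TPM, and H2-Ab1 (a class II chain), with 540 TPM, are shared with B cells. The defining genes of the cross-presenting form were at the bottom: Xcr1 at 0.758, 0 and 0.687 CPM and Clec9a at 1.86, 0.767 and 3.38 CPM.

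Megakaryocyte genes were detected for 11 of 12, led by Pf4 (platelet factor 4) at 573 TPM and Ppbp, a platelet chemokine, at 426 TPM. Pf4 stood at 207, 141 and 121 CPM.

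T cells are the cells in which the CD4-driven Cre of the other genotype acts. Their list summed to only 145, 165 and 174 CPM, with 14 of 16 genes detected. Cd2, an adhesion receptor found on some other lymphocytes too, led at 54.6 TPM. The receptor constant genes Trbc2 and Trbc1 had 29.6 and 28.8 TPM and are near-identical copies. Cd4 stood at 5.13, 8.14 and 9.14 CPM, and at 4.98 TPM it was above 18.9% of detected genes. The NK list was detected for only 3 of 13 genes, and Nkg7, a granule protein, held 74.5% of its summed TPM.

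Genes of cells that attach differed by type. In the stromal and osteoblast list 3 of 14 were detected. Lepr, a receptor of marrow stromal cells, and Lum, a matrix proteoglycan, had 0 counts in each library, and Cxcl12 was at 0.991, 4.19 and 2.01 CPM. Spp1, osteopontin, held 97.9% of the stromal list's summed TPM at 369, 274 and 298 CPM, and myeloid cells also make it. The bone collagen genes appeared in library 3 alone at more than a trace. Col1a1 stood at 1.17, 1.71 and 19.7 CPM, and Col1a2 at 0, 0 and 16.3 CPM. Bglap, osteocalcin, followed at 0, 0.118 and 0.793 CPM, whereas Col3a1, another fibrillar collagen, was at 0 in library 3. Of 10 endothelial genes 7 were detected. Pecam1, shared with leukocytes and platelets, held 67.2% of their summed TPM, and Cdh5, which is specific to vessels, was at 1.17, 1.18 and 0.845 CPM. Macrophage genes were a mixed set: Apoe had 1082 TPM and Adgre1, the F4/80 antigen, 214 TPM, as against Hmox1, a haem-degrading enzyme, and C1qb, a chain of complement C1q, at 178 TPM each. The other C1q chains were lower, with means of 51.2 TPM for C1qc and 26.0 TPM for C1qa. Marco, a scavenger receptor, was at 0, 1.18 and 0 CPM, and 12 of the 14 macrophage genes were detected.

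Transcription factors that set lineages spanned a wide range. The highest myeloid factors were Cebpb, with a mean of 637 TPM, Spi1 (PU.1), with 438 TPM, and Irf8, with 108 TPM. Cebpb acts in stressed and mature myeloid cells, Spi1 across myeloid and B cells, and Irf8 in monocyte and dendritic precursors. Cebpa, which starts granulocyte fate, had 14.1 TPM. In B cells Spib had 252 TPM and the coactivator Pou2af1 137 TPM, above Ebf1 at 35.1 TPM and Pax5 at 11.3 TPM, which fix B identity. Pax5 stood at 55.1, 25.5 and 33.6 CPM, highest in library 1, and Spib at 195, 336 and 275 CPM, lowest there. Both lists hold genes that other cells use as well.

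Receptors for growth factors were nearly all present, 19 of 20. Csf3r led with 885 TPM, then Ifngr1, a chain of the interferon gamma receptor, with 792 TPM, and Csf1r with 239 TPM. Il6ra and Il6st, the chains through which IL-6 signals to STAT3, had 21.6 and 19.0 TPM, with overlapping ranges. Of the ligands for these receptors, some were scarce: Il6 was at 0.932, 0.354 and 1.90 CPM, Csf2 at 0, 0 and 0.0528 CPM, and Csf3, G-CSF itself, at 0 in each library. Osm, which also signals through Il6st, stood at 53.3, 76.1 and 71.4 CPM, a mean of 79.0 TPM against 1.17 TPM for Il6, and Csf1, the M-CSF that binds Csf1r, stood at 16.6, 30.7 and 22.35 CPM. The most abundant ligands of the list were Ccl6, a myeloid chemokine, and Il1b. Ccl6 had a mean of 3568 TPM and Il1b 371 TPM, the latter at 249, 272 and 275 CPM.

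STAT3 pathway genes were measured over all cells of the libraries. The Cre of the other genotype acts in T cells, whose listed genes summed to only 145, 165 and 174 CPM. The pathway levels therefore do not describe the targeted cells on their own. Stat3, the factor itself, stood at 280, 482 and 387 CPM and at a mean of 108 TPM, above 88.6% of detected genes. Socs3, its target and feedback inhibitor, stood at 115, 190 and 156 CPM and at 142 TPM. Jak1, a kinase that activates STAT3, was steadier at 679, 702 and 750 CPM. Of the 13 pathway genes at a mean of 10 CPM or more, 11 were highest in library 2 and none in library 1. Of all 8852 genes at that level, 49.6% were highest in library 2. The whole list summed to 1738, 2309 and 2102 CPM, and to 1913, 2120 and 2061 CPM after an adjustment for GC content.

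Genes that sense or carry SCFA, the treatment of other groups, were measured here without it. Slc16a3 and Slc16a1, carriers of lactate and short acids, had means of 126 and 53.4 TPM, and Hcar2, a receptor for butyrate and niacin, 114 TPM. Ffar2, the main acetate and propionate receptor, was low at 10.3, 13.2 and 10.5 CPM. Ffar3 was at 0, 0.649 and 0 CPM, and the receptor Olfr78 and the carrier Slc5a8 had 0 counts in each library.

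Further lists covered responses to stimuli and stress. Interferon-induced genes, 18 of 18 detected, summed to an even 1978, 2092 and 2025 CPM, led by Ifitm3, a membrane block to viruses, at 2445 TPM. Immediate early genes, which rise within minutes of handling or stimulation, were detected for 16 of 17 and summed to 2383, 3195 and 2765 CPM. Junb had a mean of 574 TPM and Fos 317 TPM, while Fosb was at 0, 0.118 and 0.264 CPM. Among chaperones, Hspa5, of the endoplasmic reticulum, was the highest at 1102 TPM, and the heat-induced Hspa1a was at 1.17, 1.42 and 1.37 CPM. Mcl1, a short-lived survival protein of neutrophils, had 621 TPM. Eda2r, a p53 target, differed most by library in that list, at 5.24, 0.295 and 1.11 CPM.

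All 16 glycolytic enzymes and transporters were detected, and 15 were highest in library 2, as were 49.6% of all 8852 genes at 10 CPM or more. Of the genes at 50% to 55% GC, 12.98% were higher in library 1 than in library 2. Ldha (lactate dehydrogenase) stood at 814, 1248 and 993 CPM, Pkm (pyruvate kinase) at 1058, 1804 and 1454 CPM and Aldoa (aldolase) at 798, 1211 and 1018 CPM. The list summed to 4996, 7879 and 6449 CPM, and its median GC content was 53.8%. Mitochondrially encoded genes ran the other way, with 7 of 7 members at 10 CPM or more highest in library 1 and a median GC content of 37.1%. Of all 8852 genes, 29.1% were highest in library 1. Of the genes under 40% GC, 93.9% were higher in library 1 than in library 2. mt-Co1, a subunit of the terminal oxidase, stood at 5376, 2531 and 3662 CPM, and the chromosome held 1.69%, 0.822% and 1.02% of counts. mt-Co2 and mt-Co3, made from the same genome, were at 5.59, 1.18 and 1.58 CPM and at 10.3, 4.54 and 4.33 CPM. How the authors counted reads that also match nuclear copies of the mitochondrial genome is not given in the sources used here, and its part in these low levels was not tested.

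The libraries differed from each other by more than counting. Over the 8852 genes that averaged 10 CPM or more, the median ratio of SD to mean was 18.3% (quartiles 11.7% and 26.1%), where counting error alone gives a median of 3.41%. It was 33.9% for the 4188 genes at 1 to 10 CPM, 18.8% at 10 to 100 CPM, 16.7% at 100 to 1000 CPM and 17.2% above that, so it fell with level at first and hardly from 10 CPM on. In 783 genes, or 8.85%, the highest library was at least 2 times the lowest. The biological coefficient of variation, which edgeR fits as 1 value for the spread beyond counting, was 25.6% over the 12820 genes that passed its filter on low counts and 40.4% without that filter.

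The other groups of 3 libraries had smaller values, with no test made of the difference. The median ratio of SD to mean was 11.4% in untreated STAT3C mice, 10.2% in SCFA-treated controls and 12.7% in SCFA-treated STAT3C mice, with 115, 108 and 152 genes at a ratio of 2 or more. Their biological coefficients of variation were 18.5%, 16.9% and 18.5%. The deposited names of the untreated libraries, control and STAT3C, carry a different date-like prefix from those of the SCFA-treated libraries. What the prefix stands for is not given in the sources used here, and its part in the spread was not tested.

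Library 3 lay between the others. It held the middle value for 5656 of the 8852 genes, or 63.9%. Library 2 held the highest value for 4391 genes and library 1 for 2575. Libraries 1 and 2 differed by 2-fold or more in 630 genes, libraries 1 and 3 in 148, and libraries 2 and 3 in 93. Across these genes, the ranks of their levels correlated with Spearman's rho of 0.92 for libraries 1 and 2, 0.96 for 1 and 3 and 0.97 for 2 and 3. Genes are not independent replicates, and all share the libraries' depth and preparation.

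GC content of the transcript moved with these differences. Across the 99.1% of the 8852 genes with a GC value, the log2 ratio of library 1 to library 2 correlated with GC content at a Spearman's rho of -0.72. For libraries 1 and 3 rho was -0.55, and for 2 and 3 it was 0.58, whereas for exon length and the ratio of 1 to 2 it was 0.0013. Trends on GC content were not particular to this group. The rho of largest size for a pair was -0.71 in SCFA-treated STAT3C mice, -0.57 in untreated STAT3C mice and 0.54 in SCFA-treated controls. In the same order, the rho of smallest size was 0.29, -0.25 and 0.17. The 528 genes under 40% GC had a median log2 ratio of library 1 to 2 of 0.63, and 93.9% of them were higher in library 1. The 1539 genes at 55% to 60% GC had a median of -0.61, and 3.90% of them were higher in library 1. Genes highest in library 1 had a median GC content of 43.8%, those highest in library 2 53.3%, and those highest in library 3 47.3%.

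**Figure D4:**
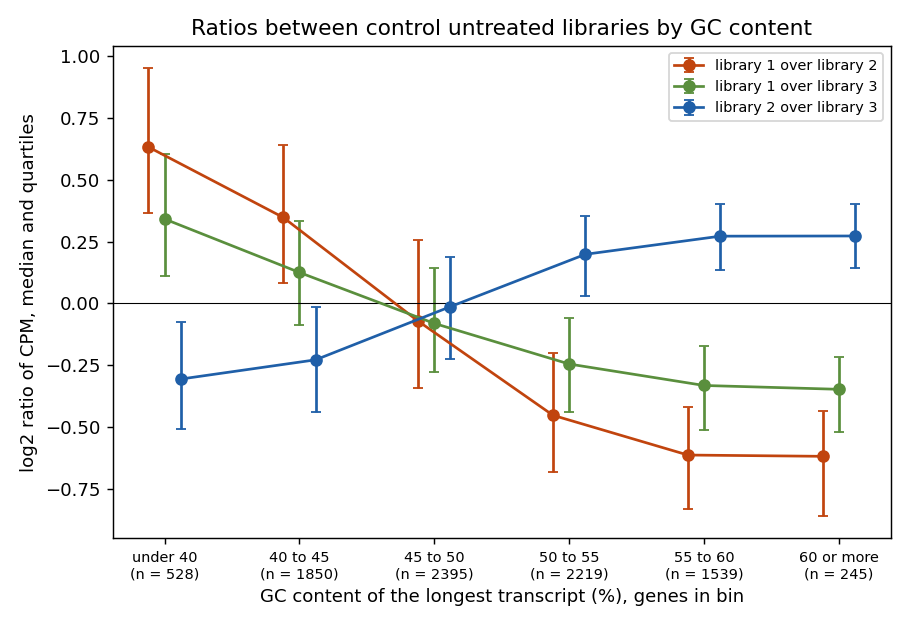
Median log2 ratio of CPM between pairs of control untreated libraries, with quartiles over genes, by GC content of the longest transcript, over genes averaging 10 CPM or more. The ratio of library 1 to library 2 runs from 0.63 below 40% GC to -0.62 at 60% GC or more, and library 3 lies between them.

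Some of the list sums given above became more even once GC content was allowed for, and others less even. When each library's trend on GC content was taken out, an adjustment chosen after the data had been seen, the primary granule sum went from 2988, 4606 and 3800 to 3660, 3807 and 3739 CPM. The glycolysis sum became 6067, 6607 and 6359 CPM. The osteoclast list went from 1517, 2387 and 1946 to 1839, 1971 and 1933 CPM. Less even were the erythroid sum, which went from 21344, 22212 and 20539 to 24525, 19326 and 20274 CPM, the plasma cell sum, from 579, 602 and 569 to 664, 528 and 562 CPM, and the mature B cell sum, at 5744, 5361 and 5559 CPM. S100a8 changed little: its log2 ratio of library 1 to library 2 was 1.21 before and 1.02 after, whereas that of Psap went from -0.87 to -0.33. The late neutrophil sum accordingly stayed uneven, at 53442, 37151 and 40077 CPM. The median ratio of SD to mean fell to 12.2%, against 9.42%, 8.36% and 8.83% in the other groups treated in the same way. The genes with a 2-fold range fell to 317, or 3.58%, against 1.18%, 1.09% and 1.23%. The cause of the gradient was not tested.

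**Figure D5:**
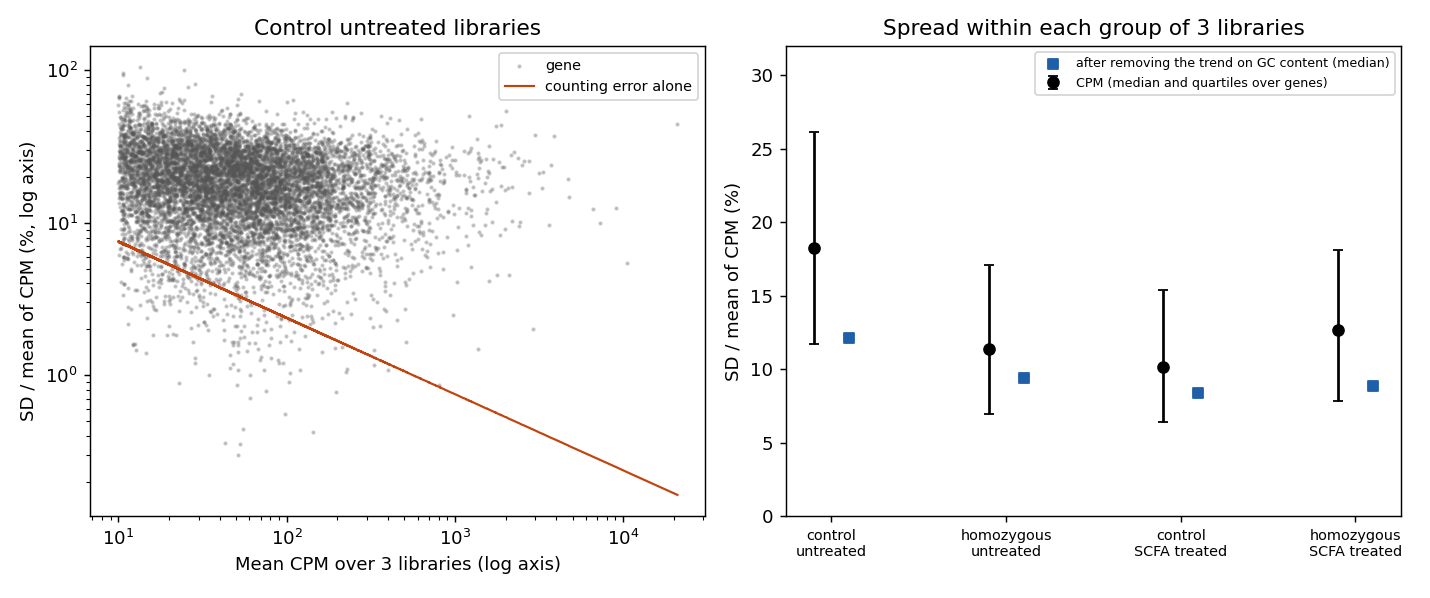
Left: ratio of SD to mean of CPM over the 3 control untreated libraries against mean CPM, both on log axes, 1 point per gene at 10 CPM or more, with the line that counting error alone gives. Right: median and quartiles of that ratio in each group of 3 libraries, with the median after removal of the GC trend as squares; control untreated is highest at 18.3%, and 12.2% after removal.

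Single genes that set 1 library apart were few. Among 7185 genes that averaged 20 CPM or more, 30 were at least 2 times higher in library 1 than in both others, with a median GC content of 39.2%, and 22 were at most 1/2 of both, with 54.8%. For library 2 these were 3 and 23 genes, and for library 3 they were 0 and 1. Zfp938, a zinc finger gene, was the most extreme at 52.9, 7.96 and 12.8 CPM. Stfa2l1, a stefin protease inhibitor of neutrophils, stood at 87.9, 23.7 and 41.8 CPM, and Il18, an inflammasome cytokine, at 35.3, 11.4 and 16.0 CPM. Lower in library 1 were Zfp407 at 9.67, 38.8 and 22.9 CPM and Myo18a, an unconventional myosin, at 23.3, 57.6 and 54.8 CPM. Plcg1, a phospholipase of receptor signalling, was higher in library 2 at 13.8, 40.05 and 14.9 CPM.

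The steadiest of the genes with a mean of 100 CPM or more depended on the scaling. Mcm4, a subunit of the replicative helicase, was at 143.5, 142.3 and 142.8 CPM, an SD of 0.606 CPM. This evenness holds for the library total as the scale: with TMM, another scaling, the SD of Mcm4 was 9.77 CPM. Creg1, a secreted lysosomal glycoprotein, stood at 796, 807 and 795 CPM (SD 6.85, and 46.2 with TMM), and Ppia, cyclophilin A, a common reference gene, at 223, 226 and 228 CPM (SD 2.38, and 12.8 with TMM). Other genes used as references were less even: Gapdh stood at 373, 543 and 453 CPM, Hprt at 328, 156 and 234 CPM, B2m at 1287, 799 and 903 CPM, and Actb at 785, 855 and 757 CPM. Gapdh has a GC content of 56.6% and Hprt of 40.1%, and they took opposite orders in the 3 libraries.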

How the data were processed

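RNA of 3 control untreated libraries was analysed. The deposited table holds raw read counts per gene symbol, which the authors made with STAR and featureCounts (genome mm10), per the submitters' processing notes. Software versions, gene annotation, strandedness and the handling of multiply mapped reads: not given in the sources used here. Of the symbols, 96.4% matched GENCODE M21 (mm10), which gave coordinates, exon length for TPM and GC content of the longest transcript. Totals of 16954355 to 18926194 counts set the precision; symbols not matched to the annotation held 0.667% to 0.754% of counts. CPM used library totals. Python 3.11.15 with pandas 2.3.3 and R 4.3.3 with edgeR 4.0.16 (common dispersion, intercept only) were used, and scripts were tested on simulated data. The GC trend was removed by subtracting, in 20 bins of equal size, each library's median deviation of log2(CPM + 0.5).

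The markers and 35 gene lists were chosen with earlier results of these data known. Named by rule were the 30 highest genes by CPM and by TPM, the 3 highest of each list and its members under 3 counts, the 8 most extreme genes of each library and the 8 steadiest, and a fixed set with Kit and Stat3; other list members were chosen after their values were seen. Alternatives changed the scaling, filter, gene length and libraries. Results for some list members are not reported here.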

Additional observations from a re-analysis of the deposited data

How the results depend on the processing

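Measures of spread depended on the filter, the GC adjustment and the libraries kept, and the SD of single genes and lists on the scaling. The 50 most abundant genes held 36.6% of the total when TPM replaced CPM. The median ratio of SD to mean was 12.2% after removing the GC trend and 46.0% over all genes with a count. Genes with a 2-fold range numbered 317 after removing that trend, 217 at a mean of at least 50 CPM, 114 without library 1, 177 without library 2 and 692 without library 3. Without 1 library at a time, the biological coefficient of variation ranged from 22.1% to 30.9%, the median ratio of SD to mean from 12.3% to 22.1%, detected genes from 12211 to 12340 and the share of the 50 most abundant genes from 15.2% to 16.7%; without the filter on low counts that coefficient was 40.4%. The mean summed CPM of each of the 19 lineage lists moved by less than 1 SD under TMM, RLE, a total without mitochondrial genes and the GC adjustment. TMM and RLE factors are balanced across the libraries, and the GC adjustment was taken around each gene's mean log2 level. Means over the libraries could therefore hardly move under these, and their steadiness says little about the levels. Their SDs did move: with TMM that of the mature B cell sum went from 106 to 457 CPM, and that of the secondary granule sum from 1180 to 168 CPM. Of the 19 lists' median TPM, 3 moved by more than that with the longest transcript as length: late neutrophil (618 TPM), macrophage (11.5 TPM) and plasma cell (9.46 TPM). The cause of these shifts was not tested. No paired analysis was possible because no comparison between groups was made. With 3 libraries, each SD is imprecise, and levels under about 1 CPM rest on fewer than 20 counts.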
